A study of Arabidopsis thaliana with 36 samples.

Results

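The PRE (PACLOBUTRAZOL RESISTANCE) genes and their antagonists were followed by RNA sequencing in Arabidopsis thaliana seedlings that grew at 27 or 22 °C. The 10 genes were chosen by their loci, with earlier results of these data known. They are PRE1 (AT5G39860), PRE2 (AT5G15160), PRE3 (AT1G74500), PRE4 (AT3G47710), PRE5 (AT3G28857) and PRE6 (AT1G26945), with IBH1 (AT2G43060), PAR1 (AT2G42870), PAR2 (AT3G58850) and HFR1 (AT1G02340). All 10 were found among the 33540 genes of every file. They encode small helix-loop-helix proteins of the atypical bHLH class, which lack the basic stretch that binds DNA and therefore act by pairing with other proteins. PRE proteins promote cell elongation in hypocotyls and petioles by binding inhibitory partners such as IBH1 and PAR1, which frees DNA-binding bHLH factors such as HBI1, the ACE and BEE proteins and PIF4. IBH1 holds back HBI1 and the ACE factors, PAR1 and PAR2 are shade-induced repressors of elongation, and HFR1 binds PIF4 and PIF5 in light-grown seedlings. Several of these genes are known targets of PIF factors, brassinosteroid and auxin signalling, so the set holds both promoters of growth and their brakes.

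The seedlings were pif4-2, a mutant of the growth-promoting transcription factor PIF4, hda9-1, a mutant of the histone deacetylase HDA9, and the wild type (WT), all in the Col-0 background. Each genotype grew on MS agar, with 8 h of light a day, at 27 °C, the high temperature, or at 22 °C, the control, and whole seedlings were frozen at lights on, when 2 or 7 days old. The 12 groups held 3 libraries each, and each library pooled RNA of 3 harvested batches of more than 50 seedlings, so n = 3 in every group and 36 libraries in all. The labels name each allele and do not describe its lesion, and a second allele of either gene was not analysed here. Values are the deposited read counts over 1 size factor per library, written as normalised counts. Differences are on the log2(normalised count + 1) scale with their standard error, and a gene counts as called where its limma p, after Benjamini-Hochberg adjustment over all genes of the fit, was under 0.05. Such p-values measure the spread between these pooled libraries. In whole seedlings, fewer cells of a type and less RNA per cell cannot be told apart.

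Each library held 21906850 to 67795235 reads in genes (median 44904956). HDA9 stood at 26.2 to 27.6 normalised counts in hda9-1, against 506 to 576 in WT at 22 °C and 2 days, and its log2 difference from WT lay between -4.31 and -2.70 in the 4 groups, each called lower. At 2 days the libraries labelled pif4-2 were not lower in PIF4 itself: its log2 difference from WT was 0.87 ± 0.23 at 22 °C (adjusted p = 0.437, and 5.65e-04 once the replicate number was a block) and -0.05 ± 0.23 at 27 °C (adjusted p = 1). At 7 days it was called lower, by -0.66 ± 0.09 at 22 °C and -0.75 ± 0.09 at 27 °C. A count over the whole gene can include reads outside a lesion, so this level does not check the label. At 2 days replicates 3 of pif4-2 and WT deviated from their group means alike (r = 0.41 at 22 °C and 0.47 at 27 °C). So did those of hda9-1 and WT (0.30 and 0.39). Replicates 3 of WT and pif4-2 at 2 days, chosen with earlier results known, were left out together in 1 setting. Replicate 3 of pif4-2 at 22 °C and 7 days was, like every library, left out in turn. Where leaving these libraries out changed a member's call, the adjusted p without them is given. Markers of seed reserves, root tissue and leaf photosynthesis, 6 genes each, were read as signs of stage and tissue. OLEO1 had no read in 1 library, a WT library at 22 °C and 7 days, and no other marker was at 0 in any library. The summed seed reserve markers stood at 24992 to 32202 in WT at 27 °C and 11954 to 14492 at 22 °C at 7 days.

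In the RefSeq annotation of build TAIR10.1 the PRE genes are short genes of 2 exons, PRE1 at chr5:15957368-15958559, PRE2 at chr5:4921243-4922812, PRE3 at chr1:27997919-27998821, PRE4 at chr3:17590544-17591670, PRE5 at chr3:10855623-10856787 and PRE6 at chr1:9351160-9352833. IBH1, PAR1 and PAR2 have 1 exon, with IBH1 at chr2:17909007-17910210, PAR1 at chr2:17836416-17837618 and PAR2 at chr3:21759350-21760390, and HFR1 has 4, with HFR1 at chr1:465616-467880. Their exons sum to 679 to 1522 bases, no other annotated gene overlaps them, and every 50-base stretch within their exons occurs once in the genome, so exact reads of 1 member could not be counted for another.

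Per kilobase of exon, so that genes can be compared, PRE6 was the most abundant PRE gene in 31 of 36 libraries, with PRE3 or PRE2 above it in 5 libraries of the mutants at 27 °C and 7 days. It made up 22.8 to 70.9% of the summed PRE level per kb over the 36 libraries. Its median over the libraries was 1109 normalised counts per kb, beside 327 for PRE3, 227 for PRE1, 116 for PRE2 and 74.4 for PRE5. Among the antagonists the medians were 1468 for PAR1, 956 for HFR1, 579.7 for PAR2 and 296 for IBH1. PRE4 lay at the floor of detection with 0 to 12 reads per library, at most 9.21 normalised counts, and was not tested. The other 9 genes reached 10 normalised counts in 33 to 36 libraries and passed the filter at each age, so counts of members below are out of 9. Because the members were chosen with earlier results known, these counts beside the share of all genes are a description.

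The range over the 12 groups differed widely between genes. PRE6 spanned 20.1-fold, with 2714 ± 35.4 normalised counts (SD, n = 3) in the highest group, hda9-1 at 22 °C and 2 days, and 135 ± 9.86 in the lowest, pif4-2 at 27 °C and 7 days. PRE5 spanned 19.3-fold and IBH1 16.2-fold. PRE1 and PRE3 were the steadiest at 3.28 and 3.44-fold. When the groups were ranked by mean, most neighbours were not separated: in PRE1 the libraries of 10 of 11 neighbouring pairs overlapped, in PRE6 6, in IBH1 6 and in HFR1 5. The group with the lowest mean was pif4-2 at 7 days for 7 genes, at 27 °C for PRE1, PRE3, PRE6 and PAR2 and at 22 °C for PRE5, PAR1 and HFR1.

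**Figure D1:**
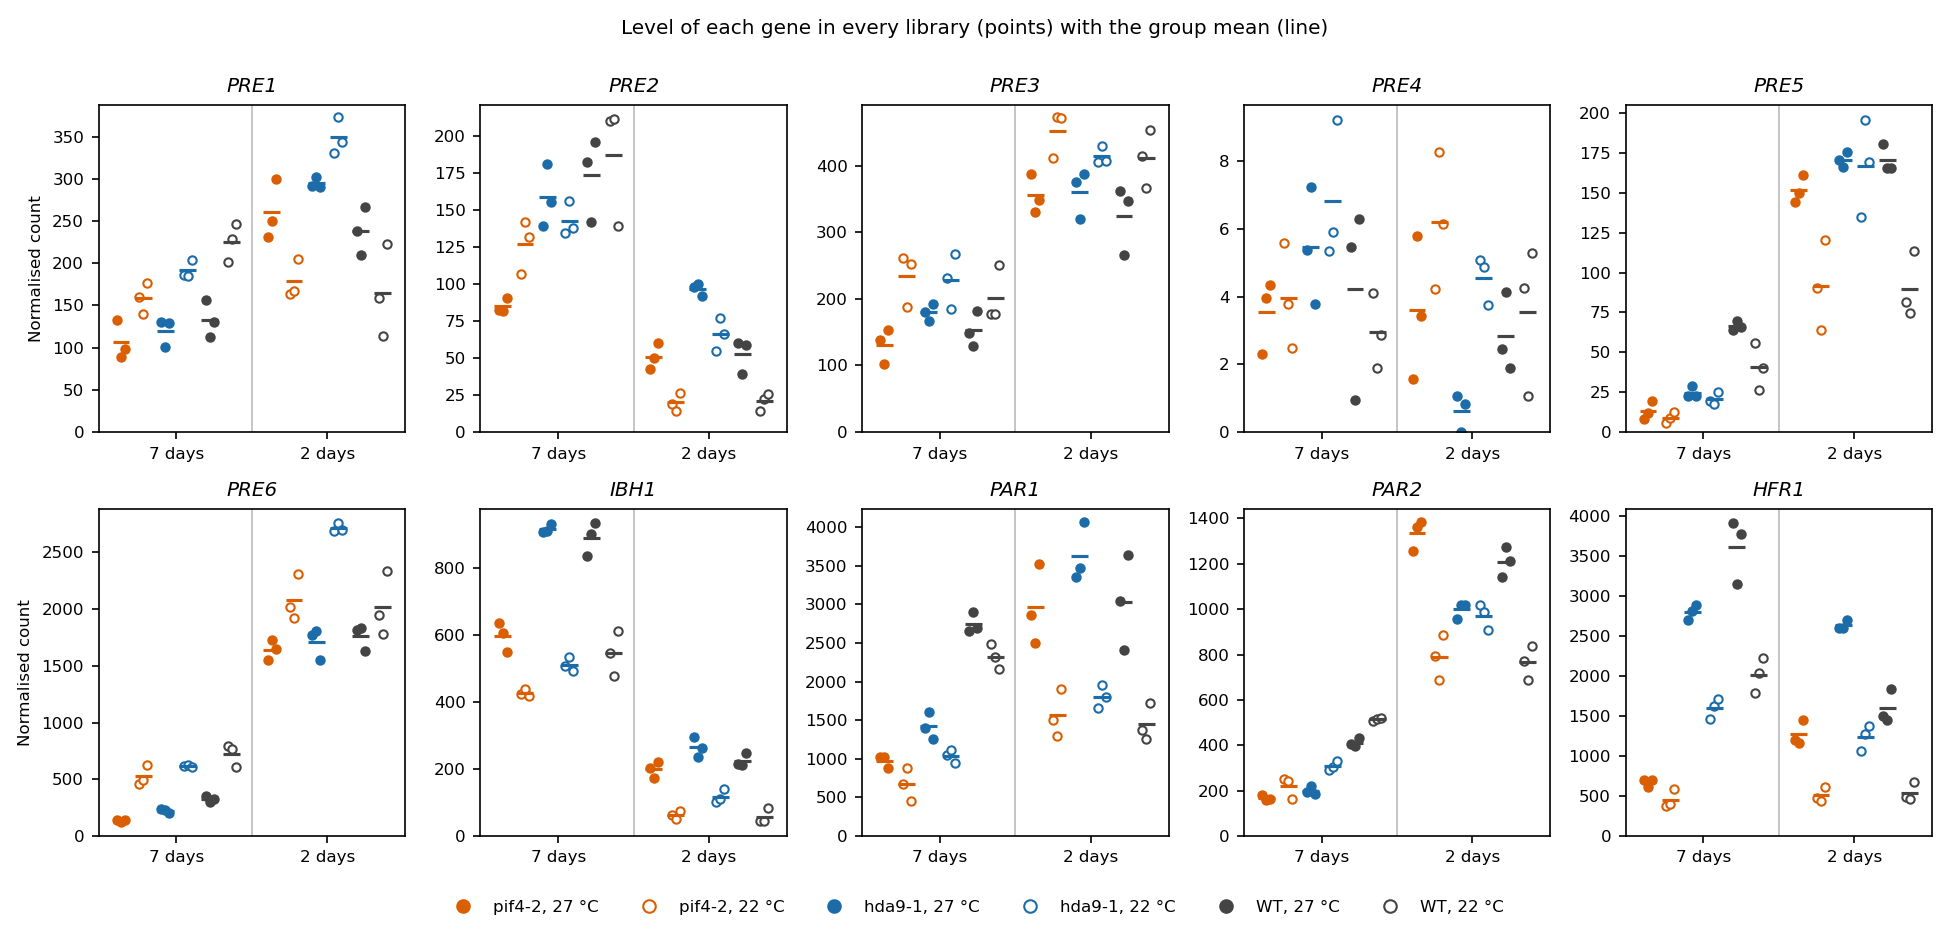
Normalised counts (linear axis from 0, with its own scale for each gene) of the 10 genes in each library, by genotype, temperature and age (n = 3 a group), with a line at each group mean. Filled points are 27 °C and open points 22 °C, the 7-day groups stand left of the 2-day groups, and PRE6 and PAR2 lie lower at 7 days in every genotype while IBH1 and PRE2 lie higher.

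The first comparison asked how warmth changed these genes in young seedlings. In WT at 2 days the brakes rose together: all 4 antagonists were called higher at 27 °C, with a median log2 difference of 1.32, beside 0.01 over all genes tested. Of the 5 tested PRE genes, PRE1, PRE2 and PRE5 rose, PRE3 fell, and PRE6 did not pass (it was called lower with edgeR, adjusted p = 0.0411, and with TMM scaling, 0.0473). That made 8 of 9 members called, where 72.0% of all genes tested were called, so being called at all was the common state at this age. Steps of at least 2-fold were less common: they were reached by PRE2, IBH1, PAR1 and HFR1, and 9.78% of all genes were called and at least 2-fold higher. Of the 6 seed reserve markers 1 was called higher and 1 lower at 27 °C, of the 6 root markers 2 and 2, and of the 6 leaf markers 0 and 1. The summed seed reserve level was 373773 to 456004 at 27 °C against 245819 to 373376.5 at 22 °C. The part of these markers in the members' values was not tested.

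IBH1, which binds and inactivates the activators HBI1 and ACE, had 214, 212 and 246 normalised counts at 27 °C and 43.2, 43.1 and 83.3 at 22 °C. Its log2 difference of 2.04 ± 0.21 (adjusted p = 4.03e-07), or 4.10-fold, was the largest of the set, and the groups did not overlap. HFR1 had 1495, 1457 and 1843 normalised counts at 27 °C and 487, 456 and 672 at 22 °C (log2 difference 1.58 ± 0.15, adjusted p = 1.52e-07), again without overlap. PAR1 had 3044, 2406 and 3643 at 27 °C and 1370.5, 1261 and 1727 at 22 °C (log2 difference 1.05 ± 0.17, adjusted p = 2.77e-05). PAR2, its close relative, had 1142, 1273 and 1213 at 27 °C and 772, 687 and 839 at 22 °C (log2 difference 0.66 ± 0.09, adjusted p = 4.33e-06). Neither PAR gene overlapped between the temperatures, and both moved less than IBH1. Among the growth promoters PRE2 had 59.9, 39.3 and 58.8 normalised counts at 27 °C and 14.2, 22.1 and 25.7 at 22 °C (log2 difference 1.32 ± 0.25, adjusted p = 1.46e-04), and PRE5 had 181, 165 and 166 at 27 °C and 81.4, 74.7 and 114 at 22 °C (log2 difference 0.94 ± 0.19, adjusted p = 3.37e-04). PRE1 overlapped between the temperatures, and its call (log2 difference 0.57 ± 0.18, adjusted p = 0.00788) was lost without WT replicate 2 at 22 °C (adjusted p = 0.0592) and when the compared groups were fitted alone (0.0515). PRE3, whose small protein moves between cells in the embryo, was lower, with 363, 266 and 347 at 27 °C and 415, 366 and 454 at 22 °C (log2 difference -0.35 ± 0.11, adjusted p = 0.0125). That call was lost without WT replicate 3 at 22 °C (adjusted p = 0.0608) or replicate 2 at 27 °C (0.0896), without replicate 3 of both WT and pif4-2 (0.0534) and with only the compared groups (0.0518). PRE6, the abundant partner of HFR1, had 1817, 1829.8 and 1634 at 27 °C and 1945, 1782 and 2334 at 22 °C (log2 difference -0.19 ± 0.09, adjusted p = 0.0701), and was called lower without WT replicate 2 at 22 °C (adjusted p = 0.0159).

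Libraries labelled pif4-2 gave 9 of 9 members called at 2 days, where 70.2% of all genes tested were called. IBH1 (1.66 ± 0.21), PRE2 (1.34 ± 0.25), HFR1 (1.33 ± 0.15), PAR1 (0.92 ± 0.17), PRE5 (0.77 ± 0.19), PAR2 (0.76 ± 0.09) and PRE1 (0.54 ± 0.18) were higher at 27 °C. PRE6 (-0.34 ± 0.09) and PRE3 (-0.35 ± 0.11) were lower. The calls of PRE1 and PRE3 were lost without pif4-2 replicate 3 (adjusted p = 0.0606) and replicate 2 (0.0547) at 27 °C, and PRE3 also without replicate 3 of both WT and pif4-2 (0.0766). In hda9-1 only part of the pattern was seen: 4 of 9 members were called, against 66.8% of all genes. HFR1 had 2604, 2596 and 2706 normalised counts at 27 °C and 1057, 1281 and 1376 at 22 °C (log2 difference 1.10 ± 0.15, adjusted p = 8.79e-06). IBH1 rose by 1.18 ± 0.21 and PAR1 by 1.00 ± 0.17. PRE6 fell, with 1772, 1809.5 and 1548 at 27 °C against 2693, 2755 and 2695 at 22 °C (log2 difference -0.67 ± 0.09, adjusted p = 8.30e-06). No PRE gene was called higher in hda9-1 at this age, and PRE2 lay just outside the threshold (log2 difference 0.56 ± 0.25, adjusted p = 0.0551; adjusted p = 0.0264 with edgeR, 0.0209 with DESeq2 and 0.0371 to 0.0477 without any 1 of 6 libraries, and 0.0311 without replicate 3 of both WT and pif4-2). PAR2 gave 0.04 ± 0.09 and PRE5 0.05 ± 0.19, neither called. PRE1 (log2 difference -0.24 ± 0.18, adjusted p = 0.23) was called lower with only the compared groups in the fit (0.0292). Of 6 markers each, 3 seed reserve, 2 root and 0 leaf genes were called higher in pif4-2 and 1, 2 and 1 lower. In hda9-1 these were 2, 1 and 2 higher and 1, 3 and 1 lower. The summed seed reserve level in pif4-2 was 370521.5 to 425404 at 27 °C against 246221 to 321274 at 22 °C. In hda9-1 it was 309500 to 387345 against 211657 to 277002. The part of these markers in the members' values was not tested. Whether the members' responses differ from those of WT is tested further on.

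At 7 days warmth moved the genes in both directions. In WT 6 of 9 members were called, close to the 57.4% of all genes tested: IBH1, HFR1 and PRE5 were higher at 27 °C, and PRE6, PRE1 and PAR2 were lower. PRE6 changed most, with 351, 302 and 322 normalised counts at 27 °C and 791, 763 and 611 at 22 °C (log2 difference -1.14 ± 0.12, adjusted p = 1.71e-07). Its groups did not overlap, and the fall was called in every setting tried. PRE1 had 157, 112 and 131 at 27 °C and 202, 228 and 247 at 22 °C (log2 difference -0.76 ± 0.15, adjusted p = 3.96e-04). HFR1 rose, with 3920.2, 3152 and 3777 at 27 °C and 1789.9, 2036 and 2222 at 22 °C (log2 difference 0.84 ± 0.13, adjusted p = 3.14e-05). IBH1 had 835, 901 and 932 at 27 °C and 546, 478 and 611 at 22 °C (log2 difference 0.71 ± 0.08, adjusted p = 6.95e-07). HFR1 and IBH1 therefore rose with warmth at both ages, while PRE1 rose at 2 days and fell at 7. PRE5 (log2 difference 0.75 ± 0.31, adjusted p = 0.0488) lost its call in 13 of the fits that left out 1 library, up to adjusted p = 0.233 without WT replicate 2 at 22 °C. PAR2 (log2 difference -0.32 ± 0.12, adjusted p = 0.0345) lost it in 5, with adjusted p = 0.0613 to 0.0931. PAR1 (log2 difference 0.24 ± 0.16, adjusted p = 0.208), PRE3 (log2 difference -0.39 ± 0.19, adjusted p = 0.0795) and PRE2 (log2 difference -0.09 ± 0.16, adjusted p = 0.643) were not called. PAR1 was called higher without pif4-2 replicate 3 at 22 °C, a library that enters through the shared estimate of spread (adjusted p = 0.0435). It was also called with only the compared groups in the fit (0.00537). Its libraries did not overlap, with 2650 to 2895 normalised counts at 27 °C and 2163 to 2482 at 22 °C. PRE3 was called lower without WT replicate 3 at 27 °C (0.0379).

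PRE6 was also the largest mover of the set in both mutants at 7 days. In pif4-2 it had 142, 124 and 139 normalised counts at 27 °C and 456, 493 and 627 at 22 °C (log2 difference -1.94 ± 0.12, adjusted p = 3.20e-10). In hda9-1 it had 236, 226 and 204 at 27 °C and 617, 627 and 604 at 22 °C (log2 difference -1.47 ± 0.12, adjusted p = 9.16e-09). Neither pair of groups overlapped. In pif4-2 8 of 9 members were called (60.1% of all genes), with IBH1 (0.48 ± 0.08), HFR1 (0.59 ± 0.13) and PAR1 (0.59 ± 0.16) higher and PRE6, PRE3 (-0.84 ± 0.19), PRE1 (-0.59 ± 0.15), PRE2 (-0.57 ± 0.16) and PAR2 (-0.38 ± 0.12) lower. PAR2 lost its call without pif4-2 replicate 1 or 2 at 22 °C or replicate 2 at 27 °C (adjusted p = 0.0886, 0.0753 and 0.0555), and with only the compared groups in the fit PAR1 (0.0539) and PAR2 (0.106) were not called. PRE5 (log2 difference 0.52 ± 0.31, adjusted p = 0.161) was called higher without pif4-2 replicate 3 at 22 °C (adjusted p = 0.0472). In hda9-1 6 of 9 members were called (57.9% of all genes), with IBH1 (0.84 ± 0.08), HFR1 (0.81 ± 0.13) and PAR1 (0.45 ± 0.16) higher and PRE6, PRE1 (-0.68 ± 0.15) and PAR2 (-0.62 ± 0.12) lower. PAR1 lost its call there without replicate 3 at 22 °C (adjusted p = 0.0873) or replicate 2 at 27 °C (0.103). Among the markers, 6 of 6 seed reserve genes were called higher at 27 °C in WT at 7 days, and of the 6 leaf photosynthesis genes 5 were called lower in WT, with RBCS1B at -2.71 ± 0.14. Of the root genes 4 of 6 were called lower. In pif4-2 the calls were 5 of 6 seed reserve genes higher, 3 of 6 leaf genes lower and 5 of 6 root genes lower, and in hda9-1 4, 4 and 5 of 6. The part of these tissue markers in the members' values was not tested.

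The difference of the WT response between the ages was tested directly. A total of 7 of 9 members were called, where 47.4% of all genes tested were (26.7% lower), and all 7 responded less upward or more downward at 7 than at 2 days. The log2 differences of the responses were -1.42 ± 0.30 for PRE2, -1.34 ± 0.24 for PRE1, -1.32 ± 0.23 for IBH1, -0.99 ± 0.16 for PAR2, -0.95 ± 0.15 for PRE6, -0.81 ± 0.24 for PAR1 and -0.74 ± 0.21 for HFR1, with adjusted p from 7.10e-06 to 0.00738. All 7 were called in every setting tried. Among the markers, 4 of 6 seed reserve genes had a higher response at 7 than at 2 days, and 5 of 6 leaf and 2 of 6 root genes a lower one, and their part in the members' values was not tested. PRE3 (-0.05 ± 0.23) and PRE5 (-0.19 ± 0.37) were not called. Both the promoters and the brakes were thus among the genes whose response was lower at the later age, and PRE1 and PAR2 changed sign. Both were called higher with warmth at 2 days and lower at 7 days, and the calls of PRE1 at 2 days and of PAR2 at 7 days are among those that depended on 1 library.

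**Figure D2:**
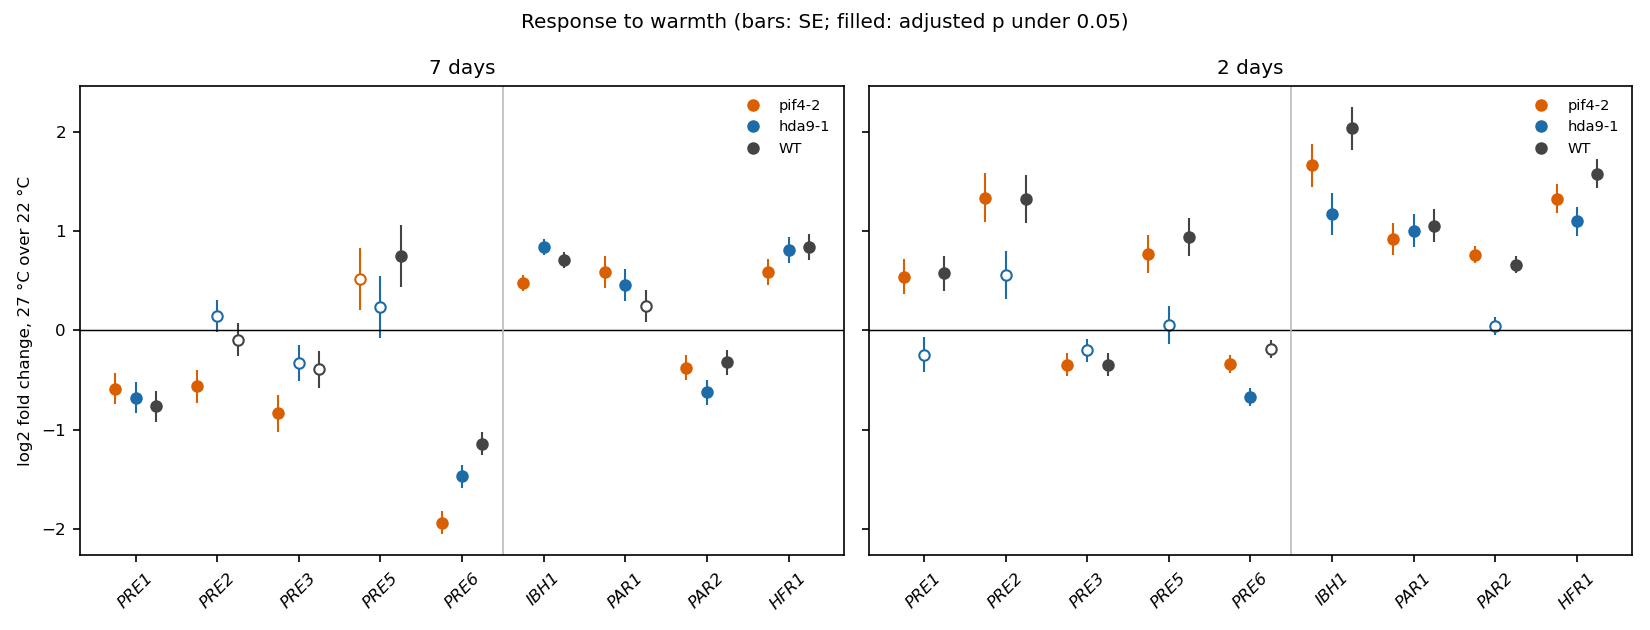
Log2 difference between 27 and 22 °C (bars, SE; n = 3 a group) of the 9 tested genes in pif4-2, hda9-1 and WT at 7 days (left) and 2 days (right). Filled points were called at adjusted p under 0.05; IBH1 and HFR1 lie above 0 in all 6 comparisons and PRE6 below 0 in all 6, filled in 5.

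Against WT, the libraries labelled pif4-2 stood out only at 7 days. At 2 days 0 of 9 members were called at either temperature, where 0.184% of all genes tested (39 genes) were called at 22 °C and 0.184% (39 genes) at 27 °C. No member had an unadjusted p under 0.05 at 22 °C and 1 (HFR1, -0.33 ± 0.15) had one at 27 °C, and edgeR and DESeq2 called 0 at each. Log2 differences ran from -0.07 to 0.20 at 22 °C and from -0.33 to 0.14 at 27 °C. With the replicate number as a block, by which these libraries pair, the count stayed at 0. PIF4 was not lower in these libraries, so no direction is drawn from them.

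At 7 days most of the set was lower in pif4-2: 8 of 9 members were called lower in pif4-2 at 22 °C and 7 of 9 at 27 °C, and none higher, where 9.7% and 11.7% of all genes tested were called lower (17.7% and 24.8% called in either direction). The median log2 difference was -1.40 over the 4 antagonists and -1.01 over the 5 PRE genes at 27 °C, and -1.54 and -0.51 at 22 °C, beside -0.01 and -0.01 over all genes tested at 27 and 22 °C. HFR1 was 0.221 and 0.186 times the WT level at 22 and 27 °C. It had 695, 615 and 701 normalised counts in pif4-2 and 3920.2, 3152 and 3777 in WT at 27 °C (log2 difference -2.43 ± 0.13, adjusted p = 9.37e-10). At 22 °C it had 369, 403 and 589 in pif4-2 and 1789.9, 2036 and 2222 in WT (log2 difference -2.18 ± 0.13, adjusted p = 1.15e-08). These groups did not overlap at either temperature. PRE5 had 8.42, 11.9 and 19.6 in pif4-2 and 64.1, 69.9 and 65.6 in WT at 27 °C (log2 difference -2.32 ± 0.31, adjusted p = 2.82e-05), and 5.60, 8.53 and 12.4 in pif4-2 and 55.9, 26.4 and 40.2 in WT at 22 °C (log2 difference -2.08 ± 0.31, adjusted p = 1.94e-04). PAR1 had 1017, 1027 and 875 in pif4-2 and 2649.8, 2895 and 2691 in WT at 27 °C (log2 difference -1.50 ± 0.16, adjusted p = 2.31e-06), with -1.84 ± 0.16 at 22 °C (adjusted p = 5.81e-07). PAR2 had 179, 157 and 163 in pif4-2 and 405, 396 and 429.9 in WT at 27 °C (log2 difference -1.30 ± 0.12, adjusted p = 6.60e-07), with -1.24 ± 0.12 at 22 °C (adjusted p = 2.87e-06). None of these groups overlapped at 27 °C. PRE6 differed by -1.26 ± 0.12 at 27 °C (adjusted p = 3.56e-07) and -0.46 ± 0.12 at 22 °C (adjusted p = 0.0102), where its libraries overlapped with those of WT. PRE2 differed by -1.01 ± 0.16 at 27 °C (adjusted p = 1.72e-04) and -0.54 ± 0.16 at 22 °C (adjusted p = 0.0301), again with overlap at 22 °C. IBH1 differed by -0.58 ± 0.08 at 27 °C (adjusted p = 3.59e-05) and -0.35 ± 0.08 at 22 °C (adjusted p = 0.00651). PRE1 was called at 22 °C (log2 difference -0.51 ± 0.15, adjusted p = 0.0311) and not at 27 °C (log2 difference -0.33 ± 0.15, adjusted p = 0.135). PRE3 was called at neither (0.22 ± 0.19 at 22 °C and -0.23 ± 0.19 at 27 °C).

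The smaller differences at 22 °C rested on the libraries and on the estimate of spread. With only the compared groups in the fit, 4 of 9 members were called at 22 °C (PRE5, PAR1, PAR2 and HFR1), and without WT replicate 2 at 22 °C 5 were. PRE1 lost its call without WT replicate 2 or 3 or pif4-2 replicate 1 or 2 at 22 °C (adjusted p = 0.0503 to 0.115), PRE2 without WT replicate 1 or 2 or pif4-2 replicate 1 (0.1 to 0.134) and PRE6 without WT replicate 1 or 2 (0.0512 each). At 27 °C PRE1 was called lower without pif4-2 replicate 1 (adjusted p = 0.032). IBH1 and PAR1 lie near PIF4 on chromosome 2, 19.9 and 48.5 kb away. Of the 15 other tested genes of that interval, 4 (26.7%) were called at 22 °C and 6 (40%) at 27 °C, beside 17.7% and 24.8% of all genes, and the part of this position in their values was not tested. Of the 6 leaf photosynthesis markers 5 were called higher in pif4-2 at 27 °C, and the summed level was 1654176 to 1741959 in pif4-2 against 1202034 to 1387317 in WT. Of the root markers 2 of 6 and of the seed reserve markers 1 of 6 were called lower there, and at 22 °C 2 of 6 leaf markers were called higher. The part of this in the members' values was not tested.

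**Figure D3:**
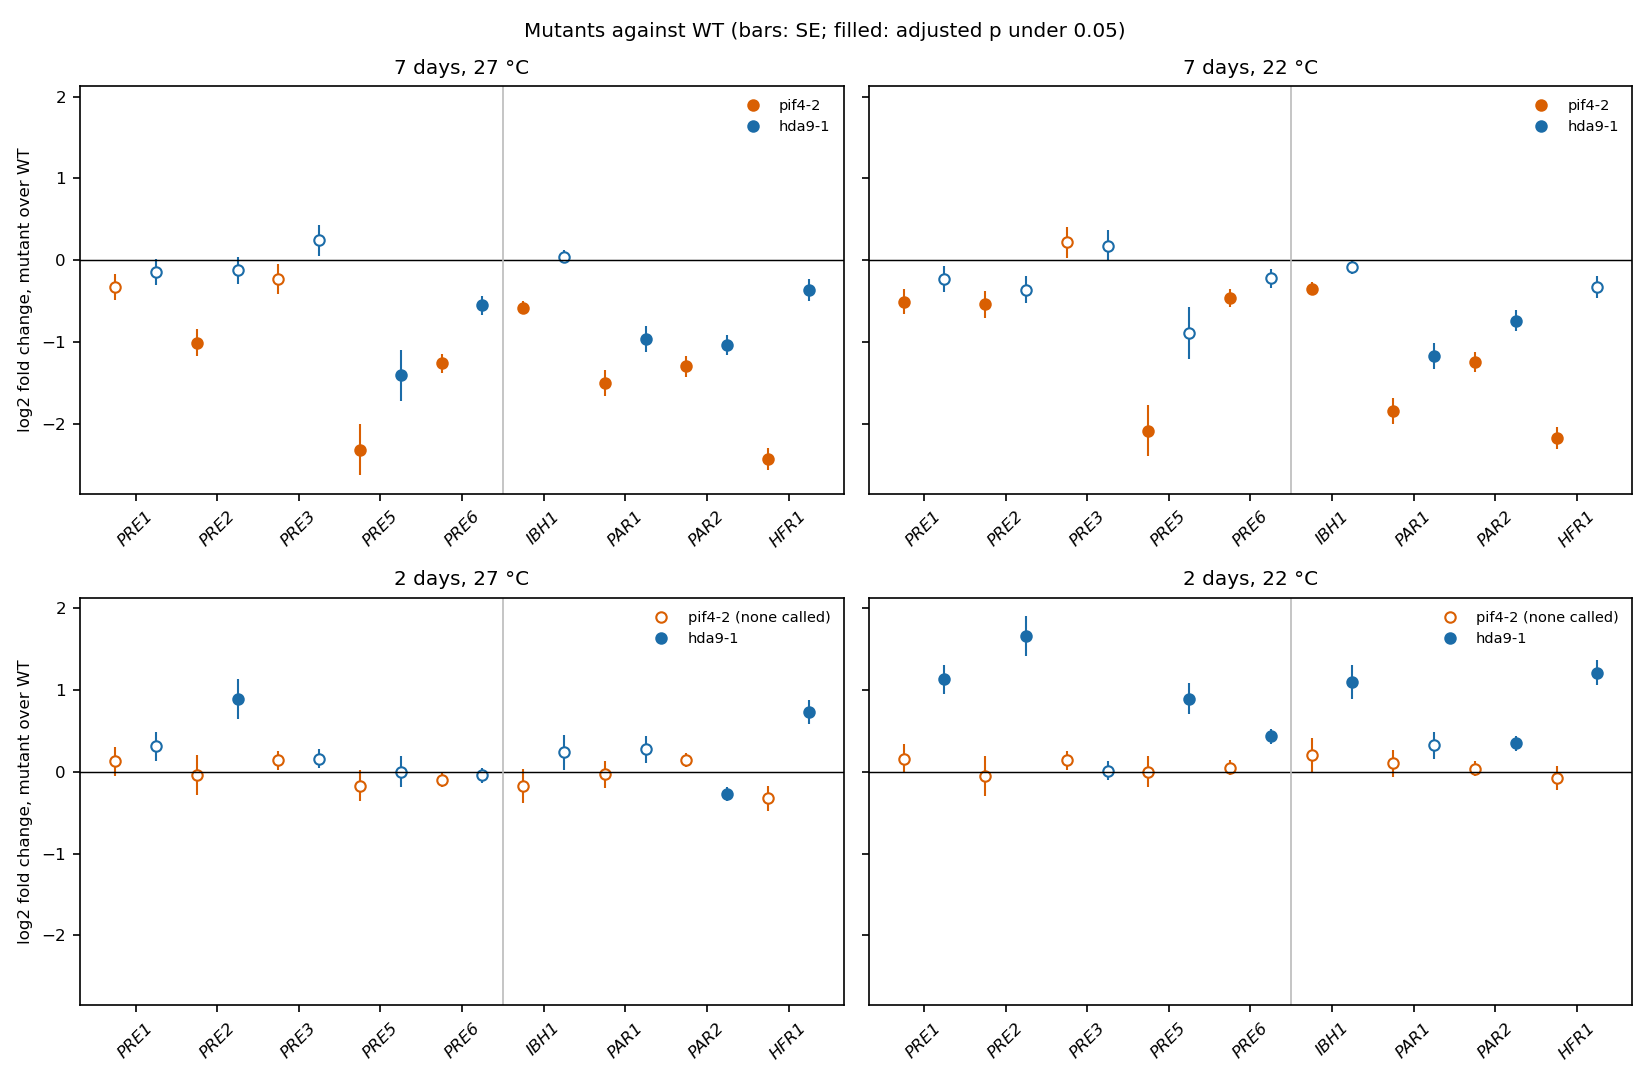
Log2 difference from WT (bars, SE; n = 3 a group) of the 9 tested genes in pif4-2 and hda9-1 at 7 days (upper panels) and 2 days (lower panels), with 27 °C left of 22 °C. Filled points were called; the pif4-2 points at 2 days are all open, and the filled points at 7 days all lie below 0.

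The stretches upstream of 5 members are shown because PIF factors bind DNA at the G-box, CACGTG, and at the PBE-box, CACATG or CATGTG on the other strand, and because these members were lower in pif4-2 at 7 days. The stretches come from the RefSeq genome of the build TAIR10.1 and run 5′ to 3′ on the gene's strand, with matches to either motif in capitals. Positions are counted in bases before the annotated gene start.
PRE2, chr5:4922813-4922852, strand -: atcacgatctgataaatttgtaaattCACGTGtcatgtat
PRE5, chr3:10857378-10857427, strand -: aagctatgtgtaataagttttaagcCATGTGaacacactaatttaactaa
PRE5, chr3:10857132-10857181, strand -: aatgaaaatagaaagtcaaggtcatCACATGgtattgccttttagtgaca
PAR1, chr2:17838519-17838568, strand -: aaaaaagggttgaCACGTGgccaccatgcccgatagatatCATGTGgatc
PAR1, chr2:17838319-17838418, strand -: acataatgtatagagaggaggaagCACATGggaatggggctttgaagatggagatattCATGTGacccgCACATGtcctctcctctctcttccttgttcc
PAR2, chr3:21761091-21761190, strand -: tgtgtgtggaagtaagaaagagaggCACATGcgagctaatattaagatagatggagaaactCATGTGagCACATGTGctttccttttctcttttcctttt
HFR1, chr1:468269-468318, strand -: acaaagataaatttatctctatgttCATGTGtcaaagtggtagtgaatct

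Within 1000 bases before the start, the G-box was present in 3 of 10 members, PRE2, PAR1 and HFR1, and in 14.8% of 27443 protein-coding genes. The PBE-box was present in 8 of 10 members, all but PRE2 and IBH1, and in 37.7% of protein-coding genes. PAR1 held 4 PBE-boxes, at 910, 776, 742 and 731 bases, and PAR2 held 5, at 775, 739, 731, 729 and 128 bases, of which the pair at 731 and 729 overlaps within CACATGTG. At least 4 were found in 153 protein-coding genes (0.558%). The longest run of letters shared by the PAR1 and PAR2 windows was 10 bases. Another annotated gene, AT2G09405, overlaps the PAR1 window, and no other annotated gene lies in the windows of the 10 members. IBH1, with neither motif in its window, was also called lower in pif4-2 at 7 days. PRE3, with a PBE-box at 759 bases, was called in pif4-2 against WT at neither temperature at that age. A match describes these letters in this window, and whether PIF4 binds there was not measured.

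**Figure D4:**
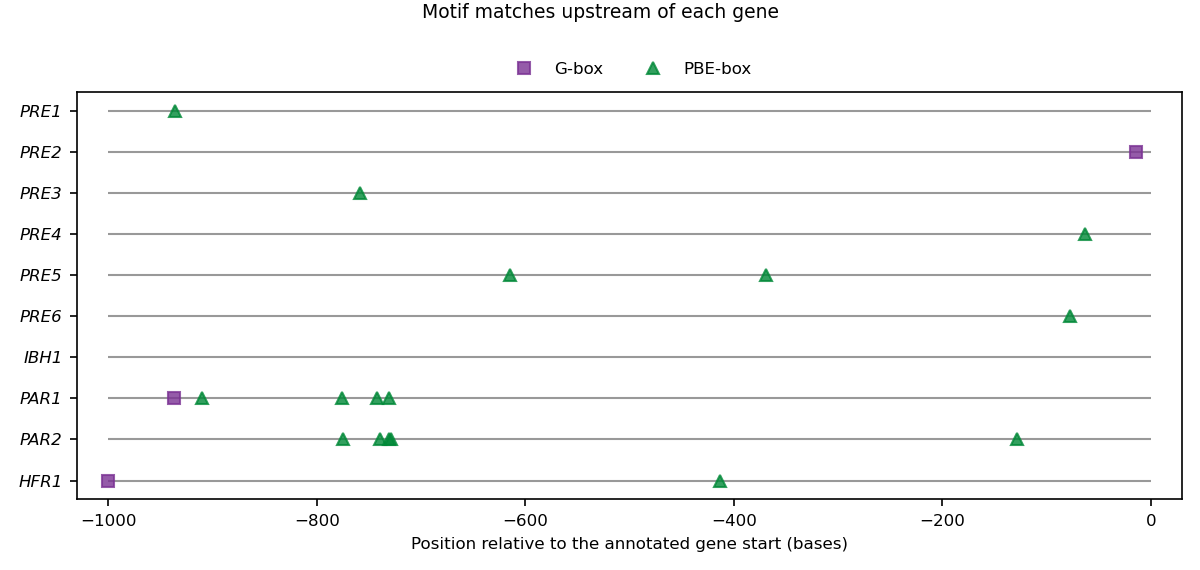
Position of G-box and PBE-box matches in the 1000 bases before the start of each of the 10 members (x axis, bases before the start). PAR1 and PAR2 hold 4 and 5 PBE-boxes, most of them between 729 and 776 bases before the start.

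Against WT, hda9-1 seedlings held more of most of these transcripts at 22 °C and 2 days, and less of some at 7 days. At 22 °C and 2 days 7 of 9 members were called higher in hda9-1 and none lower, where 24.8% of all genes tested were called higher (45.7% in either direction). PRE2 was highest above WT, with 54.9, 77.2 and 66.1 normalised counts in hda9-1 and 14.2, 22.1 and 25.7 in WT (log2 difference 1.66 ± 0.25, adjusted p = 1.40e-04). HFR1 had 1057, 1281 and 1376 in hda9-1 and 487, 456 and 672 in WT (log2 difference 1.21 ± 0.15, adjusted p = 3.48e-05). PRE1 had 330.3, 374 and 344 in hda9-1 and 158, 114 and 223 in WT (log2 difference 1.13 ± 0.18, adjusted p = 1.93e-04). In each of the 3 every hda9-1 library lay above every WT library. IBH1 (1.10 ± 0.21), PRE5 (0.89 ± 0.19), PRE6 (0.44 ± 0.09) and PAR2 (0.35 ± 0.09) were also called higher. PAR1 (log2 difference 0.32 ± 0.17, adjusted p = 0.119) was called higher without WT replicate 3 at 22 °C (adjusted p = 0.0417), without replicate 3 of both WT and pif4-2 (0.00368) and with only the compared groups (0.0498), and PRE3 (0.01 ± 0.11) was not called. PIF4 itself was higher in hda9-1 in this comparison (1.44 ± 0.23), with 1042 to 1396 normalised counts in hda9-1 and 378 to 623 in WT. Of the seed reserve markers 3 of 6 were called lower and of the leaf photosynthesis markers 2 of 6 higher in hda9-1. Their summed levels were 211657 to 277002 in hda9-1 against 245819 to 373376 in WT and 937991 to 1135911 in hda9-1 against 808804 to 925564 in WT, and their part in the members' values was not tested.

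At 27 °C and 2 days 3 of 9 members were called, close to the 29.4% of all genes: PRE2 (log2 difference 0.89 ± 0.25, adjusted p = 0.0131) and HFR1 (log2 difference 0.73 ± 0.15, adjusted p = 0.0023) were higher in hda9-1, and PAR2 (log2 difference -0.27 ± 0.09, adjusted p = 0.0263) was lower. Here hda9-1 libraries had 98.1, 100.2 and 92.3 normalised counts of PRE2 against 59.9, 39.3 and 58.8 in WT. PIF4 stood at 3250 to 4362 normalised counts in hda9-1 and 1501 to 2505 in WT, without overlap, and its part in the members' values was not tested. Without WT replicate 2 at 27 °C, only HFR1 was called (PRE2 adjusted p = 0.074, PAR2 0.103), and PAR2 was also lost without hda9-1 replicate 1 (0.0768) or 3 (0.0573). The replicate numbers pair these libraries, and with the number as a block PAR1 was called higher (adjusted p = 0.0305). With that block 40.9% of all genes tested were called. When replicate 3 of both WT and pif4-2 was dropped, PAR1 (0.00915) and PRE1 (0.0205) were called higher, which made 5. The share of all genes called in that fit is not given, so the 5 cannot be read against the 29.4%. The hda9-1 replicate 3 stayed in that fit. Its deviations from the group mean correlated with those of WT replicate 3 (r = 0.39 at 27 °C), so WT and hda9-1 were not trimmed alike. Of the leaf photosynthesis markers 3 of 6 were called higher in hda9-1 and of the root markers 1 of 6 lower. The summed leaf level was 1213560.1 to 1394879.7 in hda9-1 against 801264 to 1142049.9 in WT, and the part of these markers in the members' values was not tested.

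At 7 days the called members were all lower in hda9-1. At 27 °C these were 5 of 9, where 15.9% of all genes tested were called lower (34.3% in either direction). PRE5 had 22.3, 28.9 and 22.6 normalised counts in hda9-1 and 64.1, 69.9 and 65.6 in WT (log2 difference -1.41 ± 0.31, adjusted p = 0.00204). PAR2 had 194, 221 and 184 in hda9-1 and 405, 396 and 429.9 in WT (log2 difference -1.04 ± 0.12, adjusted p = 6.31e-06), and PAR1 1397, 1604 and 1253 in hda9-1 and 2649.8, 2895 and 2691 in WT (log2 difference -0.96 ± 0.16, adjusted p = 1.83e-04). No library of these 3 genes overlapped between the genotypes. PRE6 differed by -0.55 ± 0.12 (adjusted p = 0.00124). HFR1 (log2 difference -0.36 ± 0.13, adjusted p = 0.0426) lost its call in 8 of the fits that left out 1 library, up to adjusted p = 0.155 without WT replicate 1 at 27 °C. Of the root markers 3 of 6 and of the seed reserve markers 2 of 6 were called lower in hda9-1 at 27 °C, and 1 of 6 leaf markers higher. The summed root level was 2904 to 3077 in hda9-1 against 3242 to 3407 in WT, the summed seed reserve level 22500.4 to 24894 in hda9-1 against 24992 to 32202 in WT, and their part in the members' values was not tested. At 22 °C 2 of 9 members were called (20.0% of all genes called, 10.2% lower), the related PAR1 (log2 difference -1.17 ± 0.16, adjusted p = 7.92e-05) and PAR2 (log2 difference -0.74 ± 0.12, adjusted p = 4.98e-04). PRE5 (log2 difference -0.89 ± 0.31, adjusted p = 0.0546) and HFR1 (log2 difference -0.33 ± 0.13, adjusted p = 0.0899) were not called, and both were called lower without pif4-2 replicate 3 at 22 °C (adjusted p = 0.0283 for PRE5 and 0.00826 for HFR1), which made 4. The share of all genes called without that library is not given, so the 4 cannot be read against the 20.0%. PRE5 was also called without WT replicate 2 (0.0245) or pif4-2 replicate 1 (0.0408) at 22 °C, without pif4-2 replicate 1 (0.045) or 3 (0.0395) at 27 °C, and with edgeR (0.0267) and DESeq2 (0.0237). PRE2 (-0.36 ± 0.16) was called lower without WT replicate 3 at 22 °C (adjusted p = 0.0221). PIF4 was lower in hda9-1 at 22 °C at this age (-0.74 ± 0.09). At 27 °C it stood at 5230 to 6160 normalised counts in hda9-1 and 7767 to 8582 in WT.

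Whether warmth acted differently in a mutant than in WT was tested as the difference of the responses. For pif4-2, 1 member was called at 7 days, where 2.1% of all genes tested were: PRE6 fell more with warmth in pif4-2 (-1.94) than in WT (-1.14), a difference of -0.80 ± 0.16 (adjusted p = 0.0152; 0.0666 with only the compared groups in the fit). HFR1 (-0.25 ± 0.19), PAR1 (0.35 ± 0.23), PAR2 (-0.05 ± 0.18) and PRE5 (-0.23 ± 0.44), the members with the deepest falls against WT, were not called, so their lower level in pif4-2 was present at both temperatures without a detectable difference of response. At 2 days 0 members and 0% of all genes were called for pif4-2, no member had an unadjusted p under 0.05, and edgeR and DESeq2 called 0 members.

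For hda9-1 at 2 days 1 member, PAR2, was called, where 2.71% of all genes tested were (log2 difference -0.62 ± 0.12, adjusted p = 0.019). PAR2 had 959, 1020.2 and 1019.7 normalised counts at 27 °C and 1018, 988 and 907 at 22 °C in hda9-1, against 1142, 1273 and 1213 at 27 °C and 772, 687 and 839 at 22 °C in WT. The hda9-1 libraries overlapped between the temperatures and the WT libraries did not. The call was lost without any of 5 libraries: WT replicate 1 (0.059) or 2 (0.0634) or hda9-1 replicate 2 (0.0589) at 22 °C, WT replicate 2 (0.0509) or hda9-1 replicate 3 (0.0512) at 27 °C. PRE5 (-0.89 ± 0.27), IBH1 (-0.86 ± 0.30), PRE1 (-0.82 ± 0.25), PRE2 (-0.77 ± 0.35), HFR1 (-0.48 ± 0.21) and PRE6 (-0.48 ± 0.13) had differences of the same sign and were not called (adjusted p = 0.0564 to 0.227). Without WT replicate 3 at 22 °C, PRE1 (0.00601), PRE5 (0.0216), PRE6 (0.00723), IBH1 (0.00723) and HFR1 (0.0456) were called as well, and 6 of 9 members then had a lower response in hda9-1. The same 6 were called when replicate 3 of both WT and pif4-2 was dropped, and also with the replicate number as a block (adjusted p = 0.013 to 0.0217 for the 5 gained). The numbers pair the hda9-1 and WT libraries at 27 °C and not at 22 °C. When replicate 3 of both WT and pif4-2 was dropped, the hda9-1 replicates 3 stayed in. The 2.71% of all genes belongs to the main fit. No share of all genes is given for the settings that called 6 of 9, so the 6 cannot be read against it. With DESeq2, PRE5 (0.0474) and PRE6 (0.0384) were called beside PAR2. Without pif4-2 replicate 3 at 22 °C PRE5 (0.0481) and PRE6 (0.0448) were called as well, which made 3, and without hda9-1 replicate 1 at 22 °C or WT replicate 3 at 27 °C 2. At 7 days 0 of 9 members were called for hda9-1, where 3.53% of all genes were, none had an unadjusted p under 0.05, and edgeR and DESeq2 called 0.

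The 2 ages separated the set into genes that were higher and genes that were lower in older seedlings, where 69.9 to 76.4% of all genes tested were called over the 6 comparisons (71.1 and 74.9% in pif4-2 at 27 and 22 °C, 69.9 and 73.0% in hda9-1, 70.8 and 76.4% in WT). PRE2 and IBH1 were called higher at 7 days in all 6, and PRE3, PRE5, PRE6 and PAR2 lower in all 6. IBH1 in WT at 22 °C had 546, 478 and 611 normalised counts at 7 days and 43.2, 43.1 and 83.3 at 2 days (log2 difference 3.31 ± 0.16, adjusted p = 4.28e-17), a 9.91-fold difference. PRE2 had 210.1, 211 and 139 at 7 days and 14.2, 22.1 and 25.7 at 2 days (log2 difference 3.13 ± 0.21, adjusted p = 5.44e-14). Neither gene overlapped between the ages there, and the differences in the other groups were 1.58 to 2.76 for IBH1 and 0.70 to 2.64 for PRE2. PRE6 fell most, with 142, 124 and 139 at 7 days and 1554, 1727 and 1647 at 2 days in pif4-2 at 27 °C (log2 difference -3.59 ± 0.11, adjusted p = 2.61e-22). Its smallest difference was -1.48 ± 0.11, in WT at 22 °C. PAR2 ran from -3.00 in pif4-2 at 27 °C to -0.57 in WT at 22 °C, PRE5 from -3.49 to -1.16 in the same groups, and PRE3 from -1.45 in pif4-2 at 27 °C to -0.87 in hda9-1 at 22 °C. The seed reserve markers moved with age in every group, with 5 or 6 of 6 called lower at 7 days. Of the root markers 4 to 6 of 6 were called lower in each group (2 higher in WT at 22 °C). Of the leaf photosynthesis markers 6 of 6 were called higher in WT at 22 °C and in pif4-2 at both temperatures, 4 of 6 in hda9-1 at 22 °C, 2 of 6 in WT at 27 °C (1 lower) and 1 of 6 in hda9-1 at 27 °C (2 lower). The summed seed reserve level was 11954 to 14492 at 7 days against 245819 to 373376 at 2 days in WT at 22 °C, the root level 3862 to 4198 at 7 days against 6400.0 to 7364 at 2 days and the leaf level 2069906 to 2084986 at 7 days against 808804 to 925564 at 2 days, and their part in the members' values was not tested.

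The calls of HFR1, PAR1 and PRE1 with age were not the same in all 3 genotypes. Whether the mutants differ from WT in this is tested below, where PRE1 was called only for hda9-1 at 22 °C in the main fit. The 2-day libraries labelled pif4-2, in which PIF4 was not lower, enter the pif4-2 values. HFR1 was higher at 7 days in WT (1.18 ± 0.15 at 27 °C and 1.92 ± 0.15 at 22 °C), lower in pif4-2 at 27 °C (-0.92 ± 0.15) and not called in pif4-2 at 22 °C (-0.18 ± 0.15; adjusted p = 0.019 without pif4-2 replicate 3 at 22 °C and 7 days) or in hda9-1 at 27 °C (0.09 ± 0.15). Its call in hda9-1 at 22 °C (log2 difference 0.38 ± 0.15, adjusted p = 0.0246) was lost without hda9-1 replicate 1 of 2 days (0.146) or replicate 2 (0.0587) or 3 (0.0847) of 7 days. PAR1 was higher at 7 days in WT at 22 °C (0.69 ± 0.17), not called in WT at 27 °C (-0.12 ± 0.17) and lower in both mutants, with -1.59 ± 0.17 and -1.26 ± 0.17 in pif4-2 and -1.36 ± 0.17 and -0.80 ± 0.17 in hda9-1 at 27 and 22 °C. PRE1 was lower at 7 days in all 3 genotypes at 27 °C (-1.30 to -0.84) and in hda9-1 at 22 °C (-0.86 ± 0.17). In WT at 22 °C it was called higher (log2 difference 0.50 ± 0.17, adjusted p = 0.00971), a call that was lost without WT replicate 2 of 2 days at 22 °C (adjusted p = 0.163) or when the compared groups were fitted alone (0.0577), and in pif4-2 at 22 °C it was not called (-0.17 ± 0.17).

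Whether a mutant's signed difference from WT changed with age was tested as a comparison added after the first results were seen. These comparisons share the WT libraries. All members called had a lower value in the mutant, relative to WT, at 7 than at 2 days. For hda9-1 these were 8 of 9 at 22 °C (23.8% of all genes called, 13.9% lower) and 6 of 9 at 27 °C (15.6% called, 6.99% lower). At 22 °C the largest were PRE2 (-0.36 at 7 days against 1.66 at 2 days, a change of -2.02 ± 0.30), PRE5 (-1.78 ± 0.37), HFR1 (-1.54 ± 0.21) and PAR1 (-1.49 ± 0.24), followed by PRE1 (-1.36 ± 0.24), IBH1 (-1.19 ± 0.23), PAR2 (-1.08 ± 0.16) and PRE6 (-0.65 ± 0.15). PRE3 (0.16 ± 0.23) alone among the tested members was not called there. At 27 °C the changes were -1.41 ± 0.37 for PRE5, -1.23 ± 0.24 for PAR1, -1.09 ± 0.21 for HFR1, -1.02 ± 0.30 for PRE2, -0.76 ± 0.16 for PAR2 and -0.51 ± 0.15 for PRE6. PRE2 lost its call without WT replicate 2 of 2 days (0.0822), WT replicate 3 of 7 days (0.0531) or hda9-1 replicate 1 of 7 days (0.0566), and PRE6 without hda9-1 replicate 2 of 2 days (0.0505), WT replicate 1 (0.0599) or hda9-1 replicate 3 (0.0622) of 7 days. For pif4-2 6 of 9 were called at 27 °C (8.81% of all genes called, 4.05% lower) and 4 of 9 at 22 °C (3.57% called, 2.41% lower). HFR1 (-2.10 ± 0.21 at 27 °C and -2.10 ± 0.21 at 22 °C), PRE5 (-2.14 ± 0.37 at 27 °C and -2.08 ± 0.37 at 22 °C), PAR1 (-1.47 ± 0.24 at 27 °C and -1.95 ± 0.24 at 22 °C) and PAR2 (-1.44 ± 0.16 at 27 °C and -1.28 ± 0.16 at 22 °C) were called at both. PRE6 (-1.16 ± 0.15) and PRE2 (-0.97 ± 0.30) were called at 27 °C, where PRE2 lost its call in 8 of the fits that left out 1 library, up to adjusted p = 0.144 without WT replicate 2 of 2 days, and without replicate 3 of both WT and pif4-2 of 2 days (0.0555). Without WT replicate 3 of 2 days at 22 °C, PRE1 (0.0147), PRE6 (0.0133) and IBH1 (0.00397) were called at 22 °C as well, which made 7, and without replicate 3 of both WT and pif4-2 of 2 days these 3 had adjusted p = 0.0405, 0.0491 and 0.013. No share of all genes is given for these settings, so the 7 cannot be read against the 3.57%. PRE6 (log2 difference -0.51 ± 0.15, adjusted p = 0.0524) was also called without pif4-2 replicate 3 (0.00812) or WT replicate 3 (0.0183) of 7 days at 22 °C, pif4-2 replicate 2 of 2 days at 22 °C (0.0402) or WT replicate 3 of 2 days at 27 °C (0.0488). Of the leaf photosynthesis markers 4 of 6 were called lower in this comparison for hda9-1 at 27 °C (1 higher) and 3 of 6 at 22 °C, where 3 of 6 seed reserve markers were called higher, and their part in the members' values was not tested. The 2-day libraries labelled pif4-2 enter each pif4-2 value, and PIF4 was not lower in them.

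The mutants were also set against each other, again as an added comparison. HFR1 was called higher in hda9-1 than in pif4-2 in all 4 groups, by 1.06 ± 0.15 at 27 °C and 1.29 ± 0.15 at 22 °C at 2 days, and by 2.07 ± 0.13 and 1.85 ± 0.13 at 7 days. At 7 days and 27 °C it had 2708, 2812 and 2890.1 normalised counts in hda9-1 and 695, 615 and 701 in pif4-2 (adjusted p = 2.17e-08), without overlap. There 6 of 9 members were called, all higher in hda9-1, where 15.5% of all genes tested were called higher (29.5% in either direction). They included PRE2 (0.88 ± 0.16), PRE6 (0.71 ± 0.12), IBH1 (0.62 ± 0.08), PRE5 (log2 difference 0.91 ± 0.31, adjusted p = 0.037) and PAR1 (log2 difference 0.54 ± 0.16, adjusted p = 0.0178). PRE5 lost its call with edgeR (0.0652) and DESeq2 (0.0596) and without any 1 of 5 libraries, up to 0.177 without pif4-2 replicate 1 at 27 °C, and PAR1 lost it without pif4-2 replicate 3 (0.0726) or hda9-1 replicate 2 (0.0796) at 27 °C. With the replicate number as a block, by which these libraries pair, PRE3 was called higher too (adjusted p = 0.00315 against 0.0661). It was also called without pif4-2 replicate 3 at 27 °C (0.0423) or at 22 °C (0.04999) and with only the compared groups (0.0376), and PAR2 without pif4-2 replicate 3 at 22 °C (0.0146). Of the leaf photosynthesis markers 4 of 6 and of the root markers 2 of 6 were called lower in hda9-1 there, and their part in the members' values was not tested. At 22 °C and 7 days 5 of 9 were called higher in hda9-1 (31.9% of all genes called, 16.3% higher): HFR1, PRE5 (1.20 ± 0.31), PAR1 (0.68 ± 0.16), PAR2 (0.51 ± 0.12) and IBH1 (0.26 ± 0.08). With only the compared groups in the fit 2 of them were called, HFR1 and PRE5, IBH1 lost its call without hda9-1 replicate 2 at 22 °C (0.0814), and PRE6 was called without pif4-2 replicate 3 (0.00979). At 2 days, against the libraries labelled pif4-2, 7 of 9 were called higher in hda9-1 at 22 °C (43.8% of all genes called, 23.9% higher), with 1.71 for PRE2 and 1.29 for HFR1 the largest. PAR2 lost its call there without pif4-2 replicate 2 (0.0665), and PAR1 (log2 difference 0.22 ± 0.17, adjusted p = 0.293) was called higher without replicate 3 of both WT and pif4-2 (0.0137). At 27 °C 3 of 9 were called (32.7%), HFR1 and PRE2 (0.93 ± 0.25) higher and PAR2 (-0.42 ± 0.09) lower. With the replicate number as a block, by which these libraries pair, IBH1 (0.0354) and PAR1 (0.0174) were called higher as well, which made 5, and IBH1 was called without WT replicate 3 at 22 °C (0.0454). Without replicate 3 of both WT and pif4-2 the same pair was called higher (IBH1 0.0191, PAR1 0.00706). The 32.7% of all genes belongs to the main fit, and no share is given for the settings that called 5. Of the leaf photosynthesis markers 4 of 6 were called higher in hda9-1 in this comparison, and their part in the members' values was not tested.

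The summed level of the PRE genes per kb was set beside that of the 4 antagonists, as a description with no test. At 7 days the ratio of PRE to antagonist level was 0.285 ± 0.0386 at 27 °C and 0.823 ± 0.184 at 22 °C in pif4-2, 0.203 ± 0.00735 at 27 °C and 0.496 ± 0.0292 at 22 °C in hda9-1, and 0.164 ± 0.0133 at 27 °C and 0.353 ± 0.0215 at 22 °C in WT (SD, n = 3). At 2 days it was 0.535, 0.599 and 0.482 in libraries labelled pif4-2 at 27 °C and 1.16, 1.30 and 1.10 at 22 °C. In hda9-1 it was 0.494, 0.480 and 0.408 at 27 °C and 1.17, 1.11 and 1.10 at 22 °C, and in WT 0.569, 0.584 and 0.454 at 27 °C and 1.19, 1.17 and 1.16 at 22 °C. At that age every library at 27 °C lay below 1 and every library at 22 °C above it. In each genotype and age the 27 °C libraries thus held fewer PRE transcripts per antagonist transcript than the 22 °C libraries, and the 7-day libraries fewer than the 2-day libraries at the same temperature, with the highest 7-day value, 1.02, in a pif4-2 library at 22 °C. The ratio counts transcripts, not proteins.

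**Figure D5:**
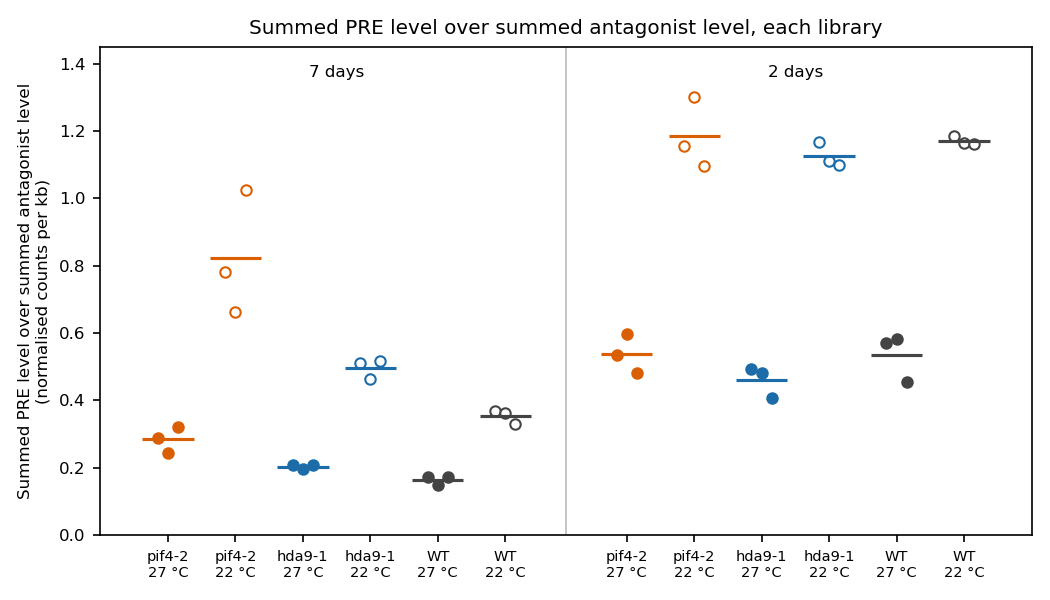
Ratio of the summed PRE level to the summed antagonist level, each in normalised counts per kb of exon, in each library by genotype, temperature and age (n = 3 a group; lines are group means). Filled points are 27 °C and open points 22 °C, and within each genotype and age the filled points lie below the open ones.

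The partners and neighbours of the module were read as lists, by counts beside the share of all genes called given above, and the median difference of all genes tested was 0.01 in WT at 2 days. The lists too were chosen with earlier results of these data known, so their counts are a description. With warmth in WT at 2 days the DNA-binding activators that PRE and IBH1 compete over were 6 higher and 1 lower of 8 (median log2 0.47), led by BEE3 (1.61 ± 0.27) and BEE1 (1.11 ± 0.12), brassinosteroid-induced bHLH factors. The IBH1-related repressors were 5 higher and 1 lower of 6 (median log2 0.52), led by AIF3 (1.47 ± 0.10). The PIF family was 6 higher and 0 lower of 8 (median log2 1.07), led by PIF4 (1.99 ± 0.23) and PIF6 (1.42 ± 0.11). Of the upstream growth regulators, which include the DELLA, BZR and ARF genes, 7 were higher and 2 lower of 11. The cell elongation genes were 9 higher and 1 lower of 10 (median log2 0.96), with the xyloglucan enzyme gene XTH15 at 2.62 ± 0.12 and the auxin response gene IAA19 at 1.41 ± 0.19. In WT at 7 days the activators were 3 higher and 2 lower of 8 (median log2 0.04), the PIF family 4 higher and 3 lower of 8 (median log2 0.43) and the elongation genes 3 higher and 3 lower of 10 (median log2 -0.10), where XTH15 rose by 3.25 ± 0.24 and the expansin gene EXPA1 changed by -1.92 ± 0.07. With warmth in hda9-1 at 2 days the elongation genes were 4 higher and 1 lower of 10 (median log2 0.26).

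In pif4-2 against WT at 7 days the elongation genes were 0 higher and 8 lower of 10 (median log2 -1.43) at 27 °C and 1 higher and 7 lower of 10 (median log2 -0.61) at 22 °C. XTH15 had a log2 difference of -3.48 ± 0.24 at 27 °C, and IAA29 -2.50 ± 0.10 at 27 °C and -3.55 ± 0.10 at 22 °C. PIL1, a shade-induced member of the PIF family, differed by -3.43 ± 0.26 at 27 °C and -2.22 ± 0.26 at 22 °C, whereas PIF7 was higher in pif4-2 (1.06 ± 0.10 at 27 °C and 0.72 ± 0.10 at 22 °C). Of the IBH1-related repressors 3 of 6 were lower at 27 °C, led by IBL1 (-1.19 ± 0.10). Of the activators 3 of 8 were lower, with BEE1 at -1.03 ± 0.30 and HBI1, a main target of IBH1 binding, at -0.24 ± 0.07. The DELLA gene GAI, a brake on PIF activity, was lower too (-0.91 ± 0.14 at 27 °C and -1.07 ± 0.14 at 22 °C). In hda9-1 against WT at 27 °C and 7 days the elongation genes were 1 higher and 9 lower of 10 (median log2 -1.25), with XTH15 at -2.17 ± 0.24 and IAA19 at -1.47 ± 0.16. At 22 °C and 2 days they were 7 higher and 0 lower of 10 (median log2 0.56), the IBH1-related repressors 6 higher and 0 lower of 6 (median log2 0.43) and the PIF family 6 higher and 0 lower of 8 (median log2 0.62), with PIF7 at 2.12 ± 0.29.

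Genes with the most similar pattern were found by Pearson's r of log2(normalised count + 1) over the 36 libraries, among 21879 genes, as a description: libraries share age, temperature and genotype, so r mainly follows the 12 group means. PRE5 was most like TUB6 (r = 0.98), a tubulin gene, PIL1 (0.98) and IAA19 (0.98). PAR1 was most like YUC8 (0.95), an auxin synthesis gene, COR314-TM2 (0.94) and RGF6 (0.94), and PAR2 like XTH8 (0.98), AT4G25260 (0.98) and AT5G11970 (0.98). HFR1 was most like HB-2 (0.94), a shade-induced homeodomain gene, HB6 (0.93) and AT3G15770 (0.92). PRE1 was most like KCS9 (0.93), CPUORF47 (0.93) and AT1G31300 (0.92), and PRE2 like SPD1 (0.97), AT1G69160 (0.96) and HB-7 (0.95). PRE3 was most like the expansin gene EXPA14 (0.96), AT3G59850 (0.96) and AT5G59350 (0.96), and PRE6 like AT5G66310 (0.98), AT5G23400 (0.98) and AT5G45670 (0.98). IBH1 was most like AT2G25200 (0.99), CYP71B20 (0.99) and MYB59 (0.99). Within the set the highest r joined PRE5 and PAR2 (0.92), PRE3 and PRE6 (0.92) and PRE2 and IBH1 (0.91), in the first and last case a promoter with a brake, and the lowest joined PRE3 and IBH1 (-0.85).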

How the data were processed

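RNA was sequenced from 36 libraries in 12 groups of 3. FastQC, TopHat2, Bowtie, HTSeq and DESeq and the build TAIR10 are named in the submitters' processing notes; the strand setting, and which libraries were scaled together, are not given in the sources used here. The deposited values are a signal, the read count of each gene divided by 1 size factor per library by the authors: 100% of values were whole multiples of 1 read within 0.01, so whole reads were recovered. HTSeq's categories that name no gene stayed out, and held 6.05 to 8.42% (not unique), 0.952 to 1.23% (ambiguous) and 0.649 to 0.884% (no feature) of the reads.

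Tests were run on log2(value + 1) of the genes that reached 10 in 3 or more libraries, with limma-trend (limma 3.58.1, R 4.3.3) and Benjamini-Hochberg adjustment: 21164 at 2 days and 21320 at 7 days, each in 1 fit of 18 libraries, and 21879 in 1 fit of 36 for comparisons between ages. A log2 difference understates the change of low genes. The fit was tested on simulated data for the WT warmth comparison at 2 days, with 20938 genes: it recovered 61.2, 91.0 and 100% of changes of 1.5, 2 and 4-fold. The simulated counts had the same relative spread for every gene beyond read counting, and no shift of a replicate. These shares may therefore not hold for genes that spread more between libraries. Alternatives were a pseudocount of 8, no filter, the replicate number as a block, TMM scaling, DESeq2 1.42.0 and edgeR 4.0.16 on whole reads, a fit of the compared groups alone, each library left out in turn, and replicate 3 of WT and pif4-2 at 2 days left out. In the last of these the hda9-1 replicates 3 stayed in, so hda9-1 was not trimmed like WT and pif4-2. Shares of all genes called belong to the main fit unless another setting is named with them. Of the 33 comparisons, 8 (change with age of a mutant's difference from WT, and hda9-1 against pif4-2) were added after the first results were seen. The members, the lists and the 4 libraries left out together were chosen with earlier results of these data known.

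Named in the text are all members, the 3 most similar genes of each, PIF4 and HDA9, and of each list the called genes with the largest differences at a mean of at least 50; RBCS1B and OLEO1 come under the markers. The labels do not say whether a replicate number marks a shared harvest. Deviations from the group means correlated above 0.1 in every same-numbered pair for pif4-2 between temperatures at 2 days, pif4-2 against WT at both temperatures and hda9-1 against WT at 27 °C at 2 days, and hda9-1 against pif4-2 at 27 °C at both ages, and by this the numbers were taken to pair those samples. Read counts limit the precision, and no library was a copy of another.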

Additional observations from a re-analysis of the deposited data

Results flagged for a closer look

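All values here are log2 differences between 2 effects, and each was picked out because a test of the difference itself, adjusted over all genes, passed. Warmth moved PRE6 in pif4-2 and WT unequally at 7 days (-0.80), and PAR2 in hda9-1 and WT unequally at 2 days (-0.62). The warmth response of WT was lower at 7 than at 2 days for 7 genes, with -1.34 for PRE1, -1.42 for PRE2, -0.95 for PRE6, -1.32 for IBH1, -0.81 for PAR1, -0.99 for PAR2 and -0.74 for HFR1. The log2 difference of pif4-2 from WT, taken with its sign, was lower at 7 than at 2 days. At 27 °C the changes were -0.97 for PRE2, -2.14 for PRE5, -1.16 for PRE6, -1.47 for PAR1, -1.44 for PAR2 and -2.10 for HFR1. At 22 °C the changes of pif4-2 were -2.08 for PRE5, -1.95 for PAR1, -1.28 for PAR2 and -2.10 for HFR1. The log2 difference of hda9-1 from WT, taken with its sign, was also lower at 7 than at 2 days. At 27 °C the changes were -1.02 for PRE2, -1.41 for PRE5, -0.51 for PRE6, -1.23 for PAR1, -0.76 for PAR2 and -1.09 for HFR1. At 22 °C the changes of hda9-1 were -1.36 for PRE1, -2.02 for PRE2, -1.78 for PRE5, -0.65 for PRE6, -1.19 for IBH1, -1.49 for PAR1, -1.08 for PAR2 and -1.54 for HFR1. The comparisons of both mutants share the WT libraries, and PIF4 was not lower in the 2-day libraries labelled pif4-2.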

How the results depend on the processing

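Of 297 tests of a member, 148 were called under every setting, 29 were called and lost under at least 1, 29 were gained under at least 1 and 91 were called under none; 34 of the 91 changed sign and none of the others did. The differences of the warmth response from WT were the least settled: 2 of 36 tests were called, against 7 with the replicate block, 7 when replicate 3 of both WT and pif4-2 was left out at 2 days, 4 with DESeq2, 1 with the compared groups alone and 1 to 7 with 1 library left out. The other counts moved less, with 1 library left out 20 to 22 (21) for warmth at 2 days, 18 to 22 (20) at 7 days, 12 to 16 (15) for pif4-2 against WT, 15 to 19 (17) for hda9-1 against WT, 49 to 51 (50) for 7 against 2 days, 22 to 27 (24) for the mutants' change with age and 19 to 24 (21) for hda9-1 against pif4-2. The WT difference between ages gave 7 under every setting. Per comparison, 2 became 4 for hda9-1 against WT at 22 °C and 7 days, with the replicate block or with only the compared groups. With the block 23% of all genes were called there, against 20.0% in the main fit. With the replicate block, 6 members rather than 1 had a different response in hda9-1 at 2 days, where the numbers pair the hda9-1 and WT libraries at 27 °C but not at 22 °C. The share of all genes called with the block is not given for that comparison. The block ended no call. Over all genes, a different response was called in 574 for hda9-1 at 2 days, against 304 with edgeR and 1032 with DESeq2, in 752 against 1173 with DESeq2 for hda9-1 at 7 days, and in 447 against 894 with DESeq2 for pif4-2 at 7 days; the cause was not tested. PRE4, at up to 12 reads a library, is the one member whose depth did not allow a test.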
